A study of Mus musculus with 8 samples.

Results

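The genes described here are the cardiac myosin heavy chain isoforms Myh6, Myh7 and Myh7b, chosen by name from the 32285 genes that the files list, so that 3 of 32285 genes are members by a rule that uses their names alone. They were followed in 4 Visium heart sections, in which each barcoded spot of the array collects the RNA of the small area of tissue above it, and in 4 droplet libraries of dissociated hearts. Each assay had 1 sample per condition: TAC-2w, TAC-4w, TAC-6w and the sham control. The mice were wild-type C57BL/6J males, 8 weeks old when used, and transverse aortic constriction (TAC) is a suture that narrows the aortic arch and loads the left ventricle with pressure; sham mice had the operation without the ligature, and hearts were taken 2, 4 or 6 weeks after TAC. The labels give no time for the sham samples and no number of hearts behind a sample. The sham and TAC-2w sections carry the label batch 1, the TAC-4w section batch 2 and the TAC-6w section batch 3, so that for TAC-4w and TAC-6w against sham the condition and the batch cannot be told apart, while TAC-2w against sham lies within batch 1. Among the libraries TAC-2w is of batch 1, TAC-4w of batch 2, and TAC-6w and sham of batch 3, so that TAC-2w and TAC-4w against sham cannot be told apart from the batch and the sham library and the sham section differ in it. With 1 section and 1 library per condition no difference has a replicate check, no p-value is given, and every interval covers counting error only.

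Condition names below stand for the labels of the samples, and the data cannot show that the labels of the sections are right. In the maps that the study drew, tissue outlines and the pattern of UMI counts appear under names shifted by 1 condition. The heart drawn as sham resembles the section that the files label TAC-2w. The one drawn as TAC-2w resembles the section labelled TAC-4w, the one drawn as TAC-4w that labelled TAC-6w, and the one drawn as TAC-6w that labelled sham. If the files rather than the maps carry the shifted names, each section belongs to the condition named in the map and the sham reference is the section labelled TAC-2w. For Myh6, Myh7 and Myh7b the ratios to that section, an alternative chosen after seeing the data, are given beside the main ones, and values within a section do not depend on the names.

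Myosin heavy chain is the motor of the thick filament of the sarcomere: its head splits ATP and pulls on actin, and its tail packs into the filament. Myh6 encodes the fast alpha chain and Myh7 the slow beta chain; in the mouse ventricle beta predominates before birth and alpha in the adult, and a return of Myh7 is a widely used sign of a loaded or failing rodent heart. Myh7b encodes an older, slow relative that muscle transcribes at low level. Each of the 3 genes is also the host of a microRNA known to act on muscle myosin programmes, and the antisense transcript Mhrt arises beside Myh7.

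On mouse build GRCm38.p6 Myh6 spans 54941921 to 54968017 and Myh7 spans 54970684 to 54994626, both on the minus strand of chromosome 14 and 2666 bases apart. Myh7b lies on the plus strand of chromosome 2, from 155611243 to 155634307. Mhrt (chromosome 14, 54968787 to 54974349, plus strand) overlaps the end of Myh7 by 3666 bases on the opposite strand. The 3 hosted microRNAs lie on the strand of their host and inside its bounds. Their mature sequences from RefSeq are shown because they tie the 3 myosin genes into 1 family of small RNAs; capitals mark the seed, bases 2 to 8 from the 5′ end.
mmu-miR-208a-3p, in Myh6: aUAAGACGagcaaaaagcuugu
mmu-miR-208b-3p, in Myh7: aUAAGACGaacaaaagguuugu
mmu-miR-499-5p, in Myh7b: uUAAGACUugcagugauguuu
The microRNAs hosted by Myh6 and Myh7 share the whole seed and 19 of 22 bases, and the one hosted by Myh7b shares the first 6 of the 7 seed bases with both. Mature microRNAs carry no poly(A) tail and were not measured by these libraries.

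The 250 bases before RefSeq starts of Myh6 and Myh7, the pair that differed from sham in opposite directions at TAC-4w, each hold 1 copy of the M-CAT element (CATTCC, or GGAATG on the other strand), the site that TEAD factors are known to bind in muscle genes. Capitals mark it.
Myh6, chr14:54966608-54966857, minus strand: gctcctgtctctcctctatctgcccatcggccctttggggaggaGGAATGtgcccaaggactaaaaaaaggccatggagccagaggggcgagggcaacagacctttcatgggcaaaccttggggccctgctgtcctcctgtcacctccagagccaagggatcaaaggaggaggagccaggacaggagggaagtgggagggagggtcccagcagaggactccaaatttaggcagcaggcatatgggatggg
Myh7, chr14:54994627-54994876, minus strand: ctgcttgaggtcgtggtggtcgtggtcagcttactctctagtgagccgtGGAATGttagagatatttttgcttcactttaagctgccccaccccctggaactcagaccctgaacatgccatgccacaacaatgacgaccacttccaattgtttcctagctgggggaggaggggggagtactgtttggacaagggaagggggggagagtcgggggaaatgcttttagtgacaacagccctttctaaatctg
The element begins 206 bases before the start of Myh6 that the window belongs to, which lies inside the bounds of the gene given above and not at their outer end, and 201 bases before the outermost start of Myh7. Among 32851 promoters of this length 12.6% hold it on either strand, and neither the window of a second listed start of Myh7 nor that of Myh7b does. A match of letters is a description and not a bound site.

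The 4 sections had 1676 spots over tissue in sham, 2063 in TAC-2w, 1228 in TAC-4w and 2193 in TAC-6w, with 25996378 to 48754396 unique molecular identifiers (UMIs) per section and mitochondrial genes at 42.2% to 51.5% of them. Levels are UMIs per 1000000 UMIs of the section (CPM); since each transcript is tagged near its 3′ end, they do not scale with the length of the gene. All sections had the profile of ventricle: the ventricular light chain Myl2 was at 8219 to 10570 CPM, the 4 listed atrial genes together (Myl4, Myl7, Sln and Bmp10) reached no more than 2.47 CPM, and the 9 listed skeletal muscle genes together lay at 7.48 to 13.6 CPM. A spot covers several cells, so fewer cells of a type and less RNA per cell cannot be told apart in these values.

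Myh7 was at 41.9 CPM in the sham section (1089 UMIs), at 23.4 CPM in TAC-2w (1139 UMIs), at 7308 CPM in TAC-4w (233422 UMIs) and at 97.1 CPM in TAC-6w (4687 UMIs). The TAC-4w section stood far above the other 3, in which Myh7 stayed under 100 CPM. Relative to sham, Myh7 was 174-fold higher at TAC-4w (95% interval 164 to 185) and 2.32-fold higher at TAC-6w (2.17 to 2.48), and it was at 0.558 of sham at TAC-2w (0.513 to 0.607). At TAC-4w it was the 12th most abundant of the 32285 genes, against the 1611th in sham, the 2935th in TAC-2w and the 806th in TAC-6w. Against TAC-6w the TAC-4w level was 75.3-fold higher (73.1 to 77.5). With the section labelled TAC-2w as the reference, Myh7 was 313-fold higher in TAC-4w (295 to 332), 4.16-fold higher in TAC-6w (3.89 to 4.44) and 1.79-fold higher in sham. The order of the sections, TAC-4w, TAC-6w, sham and TAC-2w, has no overlap between the counting intervals of neighbours.

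Myh6 was at 7323 CPM in sham, 8043 CPM in TAC-2w, 3770 CPM in TAC-4w and 7093 CPM in TAC-6w. Sham, TAC-2w and TAC-6w thus lay close together, and TAC-4w was the low section. Its ratio to sham was 0.515 at TAC-4w (0.511 to 0.519). The ratios of 1.10 at TAC-2w and 0.969 at TAC-6w have no firm direction: without mitochondrial and rRNA-like features in the total the first was 0.940, and as a mean over spots the second was 1.02. Against the section labelled TAC-2w, Myh6 was at 0.469 in TAC-4w and 0.882 in TAC-6w. In the TAC-4w section Myh7 lay further above sham in CPM than Myh6 lay below it. The 2 genes together made 7365 CPM in sham, 8066 in TAC-2w, 11078 in TAC-4w and 7190 in TAC-6w, so that the sum at TAC-4w was 1.50 times that of sham. This figure depends on the total, and the sum was not computed for another one. Without mitochondrial and rRNA-like features the TAC-4w ratios were lower, at 0.431 for Myh6 and 146 for Myh7. Relative to the cardiomyocyte reference genes they were higher, at 0.556 and 188.

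Myh7b stayed at the low level for which it is known, with 17.7 CPM in sham, 14.4 CPM in TAC-2w, 8.58 CPM in TAC-4w and 18.0 CPM in TAC-6w, from 274 to 870 UMIs per section. It was lowest at TAC-4w, at 0.486 of sham (0.417 to 0.566), and at 0.813 of sham at TAC-2w (0.722 to 0.917). The TAC-6w level could not be told from sham at this depth, with a ratio of 1.02 (0.910 to 1.15). Of the 3 isoforms, then, Myh6 and Myh7b were both below sham at TAC-4w, where Myh7 was highest. At TAC-6w, where Myh7 was 2.32-fold above sham, neither Myh6 nor Myh7b had a firm difference from it.

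With 1 section per condition a gene was called when its CPM differed from sham by more than 2-fold, provided it had 50 or more UMIs in the sham or the TAC section. At TAC-4w 5.28% of 11205 genes were called higher and 0.776% lower, and of the 3 members Myh7 was called higher, Myh7b lower, and Myh6, at 0.515, lay just inside the threshold. Without mitochondrial and rRNA-like features in the total, a choice that lowers the ratios of all other genes alike, Myh6 was at 0.431 of sham. The share of all genes past 2-fold was not computed for that total, so this value is not counted as a call. The call of Myh7b was lost as a mean over spots (0.520), relative to the cardiomyocyte reference genes (0.525), and against the section labelled TAC-2w (0.597). The ratio of Myh7 at TAC-4w was the second highest of the 11205 genes, and those of Myh7b and Myh6 were the 81st and 98th lowest. At TAC-6w 4.66% of 11952 genes were called higher and 0.251% lower, and Myh7 alone of the members was called, as the 342nd highest ratio. At TAC-2w 0.657% of 11423 genes were called higher and 0.587% lower, with 0 of 3 members called. Myh7 had the 122nd lowest ratio, and without those features in the total it was at 0.477, with the same limit. The median ratio of all genes was 1.03 when TAC-2w was set against sham, 1.16 for the TAC-4w section and 1.24 for the TAC-6w one.

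**Figure D1:**
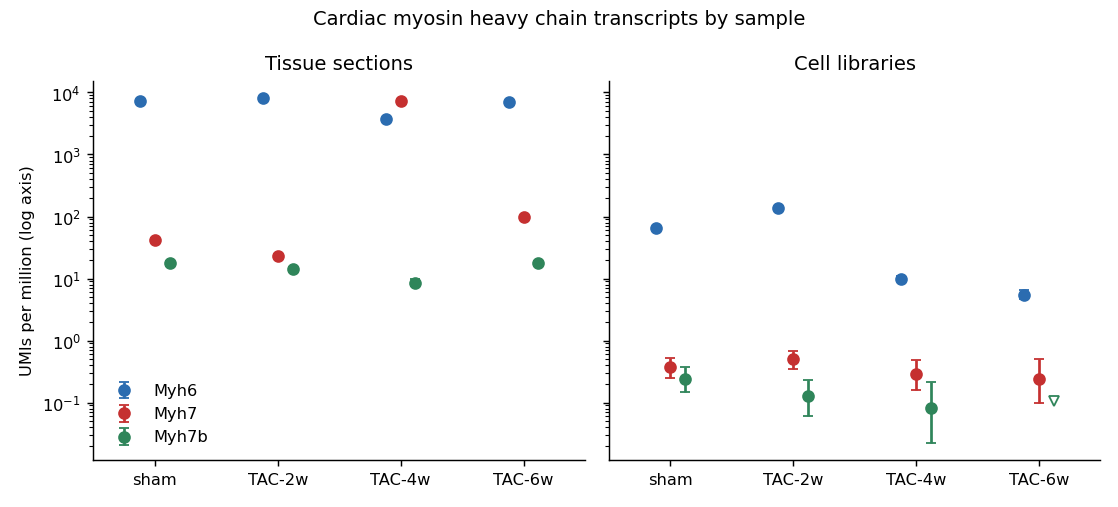
Level of Myh6, Myh7 and Myh7b in CPM (log axis) in the 4 sections (left) and the 4 cell libraries (right), 1 sample per condition; bars are exact Poisson 95% intervals and the open triangle is the level of 3 UMIs, drawn for a count of 0. Myh7 lies above Myh6 in the TAC-4w section alone, at 7308 against 3770 CPM.

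The share of Myh7 in the UMIs of Myh6 plus Myh7 compares the isoforms within a sample and does not depend on the total. It was 0.569% in sham (0.536% to 0.604%), 0.290% in TAC-2w (0.273% to 0.307%), 66.0% in TAC-4w (65.8% to 66.1%) and 1.35% in TAC-6w (1.31% to 1.39%). Myh7 was thus the major isoform in 1 of the 4 sections. Myh6 and Myh7 are near-identical in much of their sequence, and reads given to the wrong one of them would enter the low shares first; this was not tested.

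The high Myh7 share of the TAC-4w section was found in nearly every spot. Among the 1226 spots of that section with at least 10 UMIs of the pair, the lowest share was 44.3%, the median 66.3% and the highest 92.9%, and 97.8% of spots were over 50%. In the other sections no spot passed 50%: the highest was 15.7% in sham, 7.35% in TAC-2w and 18.4% in TAC-6w. The spot distributions of TAC-4w and of the other 3 sections therefore did not overlap. The SD over the TAC-4w spots was 7.38 percentage points, against 3.46 expected from counting alone, so the spots differed among themselves by more than sampling of UMIs. In TAC-6w the SD was 1.84 percentage points against 1.29 from counting.

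**Figure D2:**
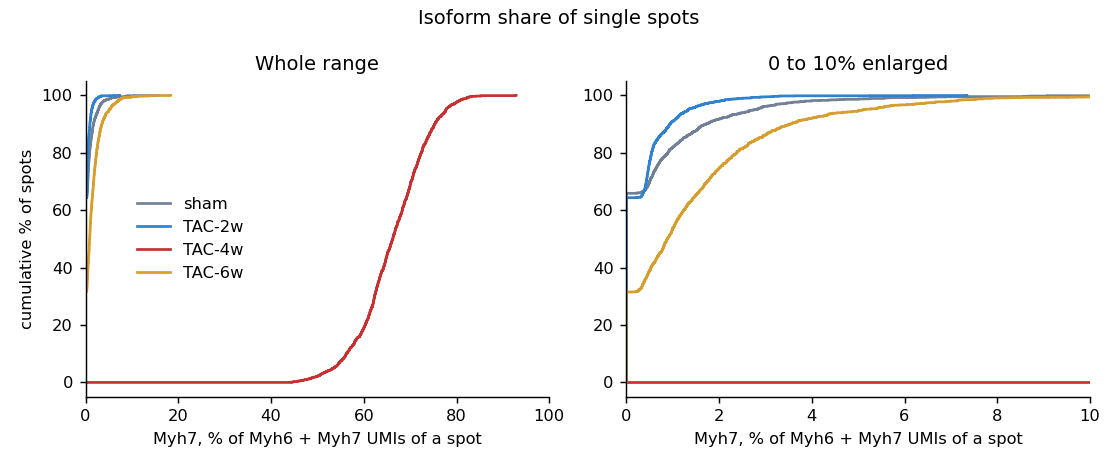
Cumulative percentage of spots (vertical axis) by their Myh7 share of Myh6 plus Myh7 UMIs (horizontal axis, percent), for spots with at least 10 such UMIs in each section; the right panel enlarges the range from 0 to 10%. The TAC-4w curve runs from 44.3% to 92.9% and the other 3 end at or below 18.4%.

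The share at TAC-4w differed little with depth: it was 70.0% in spots under 5000 UMIs and 65.6% in spots over 30000 UMIs. In TAC-6w it was 1.62% and 1.297% in the same classes. At least 1 Myh7 UMI was found in 34.0% of sham spots, 35.6% of TAC-2w spots, 99.9% of TAC-4w spots and 68.4% of TAC-6w spots. After each spot was thinned to 5000 UMIs, with 15 to 299 shallower spots per section left out, the figures were 16.4%, 10.7%, 100% and 34.6%. Myh6 was found in every spot of every section except 1 spot of TAC-2w. Myh7b was found in 20.9%, 27.8%, 18.8% and 28.1% of spots in the same order of sections, and after thinning in 6.83%, 6.35%, 3.35% and 8.71%.

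The likeness of neighbouring spots was measured by Moran's I. This index is 0 for no likeness between a spot and its 6 neighbours and approaches 1 for smooth regions. For the Myh7 share it was 0.0625 in sham, 0.0499 in TAC-2w, 0.485 in TAC-4w and 0.138 in TAC-6w. Where Myh7 counts 0 or 1 per spot, counting noise holds this value down, so the sections are not ranked by it. For the level of Nppa, the atrial natriuretic peptide that loaded ventricle also makes, Moran's I was 0.430, 0.590, 0.796 and 0.581 in the same order of sections. At TAC-4w it was 0.426 for the level of Myh7 and 0.777 for all UMIs of a spot. For Myh7b the values were -0.00258 to 0.0235, and its sparse counts set the same limit.

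By distance from the outer edge of the tissue, the Myh7 share at TAC-6w was 1.11% in the outer 2 steps of spots and 1.80% (1.72% to 1.89%) more than 10 steps inside, and at TAC-2w it was 0.188% and 0.385% at the same depths. Nppa went the same way, from 232 to 1028 CPM at TAC-6w and from 35.1 to 325 CPM at TAC-2w. Sham had no such order, with shares of 0.507% to 0.623% over the 4 distance classes, although its Nppa also went inward from 29.9 to 194 CPM. At TAC-4w the classes lay between 62.9% and 68.3% without an inward order, although Nppa was at 668 CPM in the outer class and at 3044 CPM in the innermost. Myh7b was lower inside in sham, at 20.5 CPM in the outer class and 11.3 CPM in the innermost, and in TAC-6w, at 25.3 and 14.9 CPM. In TAC-2w it was at 12.4 and 15.2 CPM in these classes, and in TAC-4w at 11.05 and 10.1 CPM. Spots deeper in the tissue were also shallower in UMIs. The median was 14598 in the innermost against 32059 in the outer class at TAC-6w, and 7004 against 23450 in sham. It was 22126 against 26379 in TAC-2w and 22892 against 28021 in TAC-4w. The innermost class of sham held only 49 Myh7b UMIs. The part of depth in these results was not tested.

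When the TAC-4w section was divided into 8 sectors around its centre, the Myh7 share ran from 63.3% to 69.2%. The sectors with the highest and the lowest share were neighbours and both were rich in Nppa, at 4331 and 3686 CPM, while the other 6 sectors had 458 to 1226 CPM of Nppa. At TAC-4w a high Nppa level therefore went with either end of the isoform share at this scale. In sham the highest sector had 0.890% with Nppa at 239 CPM, and the lowest 0.319% with 17.6 CPM. In TAC-2w these were 0.360% with 308 CPM and 0.249% with 130 CPM. In TAC-6w they were 1.72% with 461 CPM and 1.04% with 480 CPM.

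**Figure D3:**
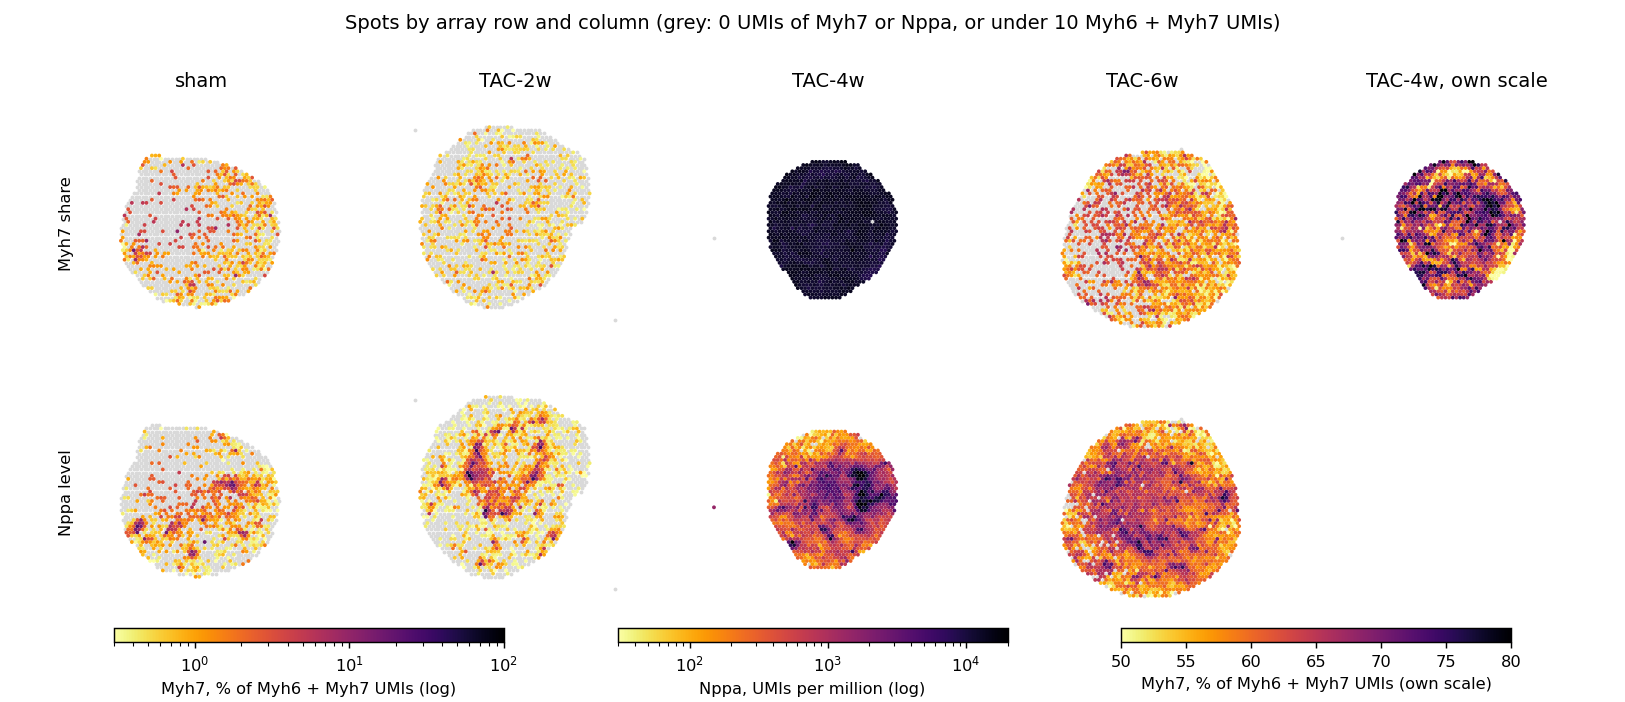
Spots at their array row and column in the 4 sections, coloured by the Myh7 share of Myh6 plus Myh7 UMIs (upper row, percent on a log colour scale) and by the Nppa level (lower row, CPM on a log colour scale); the upper right panel repeats TAC-4w on its own linear scale from 50% to 80%. Myh7 covers the whole TAC-4w section, with a Moran's I of 0.485 for the share and 0.426 for the level. For the Nppa level it is 0.796 and for all UMIs of a spot 0.777, and 5.78% of spots hold 50% of the Nppa UMIs.

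The UMIs of Myh7 and Nppa were spread very differently over the TAC-4w section. The richest 30.1% of spots held 50% of all Myh7 UMIs there, close to the 29.6% for Myh6 and the 34.3% for all UMIs, whereas 5.78% of spots held 50% of the Nppa UMIs. In sham 7.10% of spots held 50% of the Myh7 UMIs and 2.80% held 50% of those of Nppa. In TAC-6w the figures were 12.8% and 7.57%. Few UMIs per spot make this figure small by themselves. For Myh7b, with a Moran's I of 0.00681 in sham and -0.00258 in TAC-4w, it was 7.22% and 7.655%. The Myh7 figures of sham and TAC-6w are therefore not compared with that of TAC-4w.

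Overlap with Nppa-positive spots (at least 1 Nppa UMI) was partial where Myh7 was low. In sham, 52.8% of the 570 Myh7-positive spots were Nppa-positive (48.6% to 57.0%) against 36.4% of the Myh7-negative ones, and 42.8% of the 703 Nppa-positive spots were Myh7-positive against 27.7% of the Nppa-negative ones. In TAC-2w, 61.3% of the 734 Myh7-positive spots were Nppa-positive against 51.5% of the others, and 39.7% of the 1135 Nppa-positive spots were Myh7-positive against 30.6%. In TAC-6w the values were 97.0% against 92.4%, and 69.4% against 45.9%. Myh7-positive and Nppa-positive spots thus coincided more often than the other spots in these 3 sections. At TAC-4w nearly all spots had both, 1218 of 1228, so the overlap carries no information there.

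Since deeper spots are more often positive for any gene, the overlap was repeated after thinning to 5000 UMIs. Nppa was then found in 30.3% of Myh7-positive and 21.9% of Myh7-negative sham spots, in 41.1% and 23.95% of TAC-2w spots, and in 77.9% and 71.9% of TAC-6w spots. The direction remained in all 3 sections. For Myh7b, thinned, Nppa was found in 20.8% of positive and 23.4% of negative sham spots, in 23.9% and 25.9% of TAC-2w spots, and in 67.9% and 74.6% of TAC-6w spots, so that Myh7b-positive spots did not hold more Nppa.

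In sham and in TAC-2w, spots with more Myh7 UMIs had more Nppa. In sham, Nppa was at 63.0 CPM in the 1106 spots with no Myh7 UMI and at 734 CPM in the 30 spots with over 4. These 30 spots also had smooth muscle genes (Myh11, Tagln and Acta2) at 764 CPM, against 93.0 CPM in spots without Myh7, and fibroblast genes (Col1a1, Dcn and Pdgfra) at 915 against 496 CPM and macrophage genes (Cd68, Adgre1 and C1qa) at 181 against 79.0 CPM. In TAC-2w, Nppa was at 83.1 CPM with no Myh7 UMI and at 1794 CPM in the 19 spots with over 4, with smooth muscle genes at 96.5 and 237 CPM, fibroblast genes at 494 and 961 CPM and macrophage genes at 78.3 and 164 CPM. In both sections the listed atrial genes stayed under 4 CPM in these spots. The spots with over 4 Myh7 UMIs were also deeper than those with none. Their median was 26848 against 11488 UMIs in sham and 27160 against 24097 UMIs in TAC-2w. The part of depth, and of RNA from smooth muscle, fibroblasts and macrophages, in both results was not tested.

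In TAC-6w, Nppa was at 426 CPM in the 694 spots with no Myh7 UMI and at 1081 CPM in the 269 spots with over 4, and the skeletal actin Acta1, a fetal isoform in the ventricle, at 2988 and 3947 CPM. Myh6 was at 7114 and 7126 CPM in the same spots, so that more Myh7 did not go with less Myh6 in this section. The spots with over 4 Myh7 UMIs were deeper, with a median of 35325 against 8212 UMIs, and had fibroblast genes at 792 against 636 CPM and smooth muscle genes at 125 against 98.1 CPM. Spots with 1 Myh7 UMI had Nppa at 407 CPM, below the 426 CPM of spots with no Myh7 UMI.

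In TAC-4w, where all spots had Myh7, spots were put into 4 equal classes by their share, from a summed share of 56.6% in the lowest to 74.97% in the highest. The order of Myh6 and Myh7 over the classes follows from that choice. Between the lowest and the highest class, Nppa was at 899 and 3953 CPM, its relative Nppb at 282 and 485 CPM, Acta1 at 844 and 1814 CPM and the stress-induced repeat protein Ankrd1 at 799 and 1574 CPM, and all 4 genes were ordered over the 4 classes. The classes do not tell whether these genes go with more Myh7 or with less Myh6. Over single spots, Pearson correlations with Myh6 and with Myh7 were -0.594 and -0.0597 for Acta1 and -0.432 and 0.0504 for Nppb. They were -0.200 and 0.252 for Nppa and -0.389 and 0.215 for Ankrd1. The cardiomyocyte reference genes, 9 sarcomere and muscle genes summed, were at 32191 and 34139 CPM, smooth muscle genes at 70.3 and 149 CPM and fibroblast genes at 722 and 879 CPM, both lists ordered over the 4 classes too, and their part in the result was not tested. Mhrt went from 4.94 to 1.95 CPM. The atrial light chain Myl7 was at 0.689 and 3.52 CPM.

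**Figure D4:**
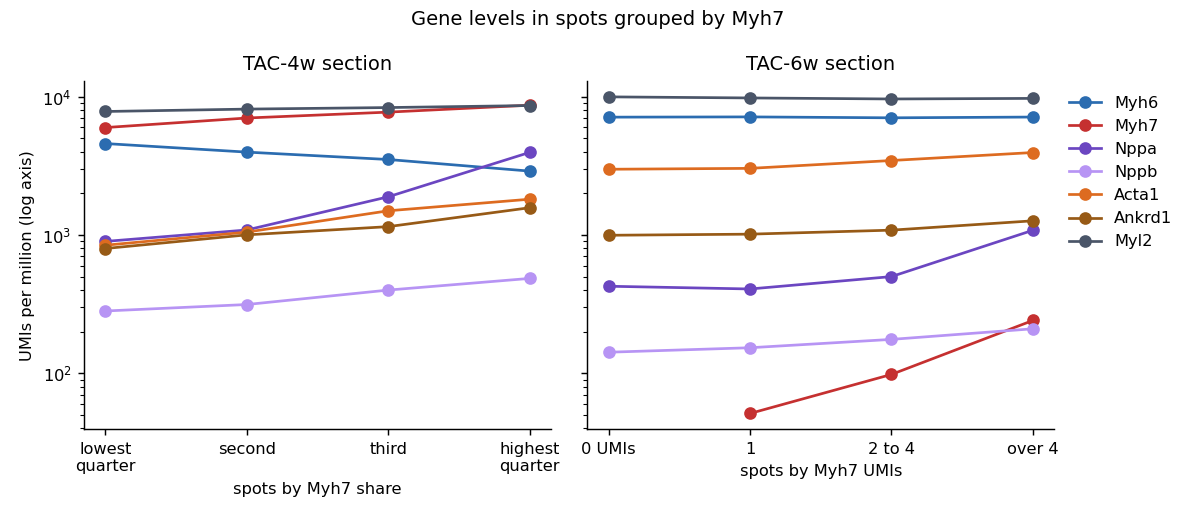
Levels of 7 genes (CPM, log axis) in the TAC-4w spots in 4 equal classes of the Myh7 share (left) and in the TAC-6w spots by their number of Myh7 UMIs (right); each point is the sum over the spots of a class, and Myh7 at 0 UMIs is not drawn. Nppa changes most at TAC-4w, from 899 to 3953 CPM, and Myh6 lies flat at TAC-6w, at 7114 and 7126 CPM.

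Over single spots with at least 5000 UMIs, on the log2(CPM + 100) scale, Nppa had the highest Pearson correlation with Myh7 of all genes with a mean of at least 0.5 UMIs in 3 sections: 0.214 over 1406 sham spots, 0.265 over 2048 TAC-2w spots and 0.292 over 1894 TAC-6w spots. Next came Myl9, Bgn, Ltbp4 and Acta2 in sham (0.205 to 0.180), Vim, Clu, Gsn and Mgp in TAC-2w (0.167 to 0.147) and Crip1, Postn, Acta1 and Bgn in TAC-6w (0.198 to 0.179), several of them genes of fibroblasts and smooth muscle. The 5 lowest genes in each of these sections were mitochondrial. These are weak values in sparse counts, and spots share the library and its depth. Mitochondrial genes made 42.2% to 51.5% of the UMIs of a section. A spot with more of them has a lower CPM of other genes by calculation. The part of this in their low correlations, here and below, was not tested.

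At TAC-4w the genes most like Myh7 were thin and thick filament genes of the working sarcomere. The median spot had 180 Myh7 UMIs in this section, 0 in sham and in TAC-2w and 1 in TAC-6w. Counting noise holds correlations down where counts are so low, so the lists of the sections are not compared. Over 1194 spots of TAC-4w the 5 highest were the troponins Tnnt2 (0.450) and Tnnc1 (0.349), the tropomyosin Tpm1 (0.370), the light chain Myl2 (0.336) and the myosin-binding protein Mybpc3 (0.299), while Nppa reached 0.252 and Acta1 -0.0597. The genes least like Myh7 there were mt-Co2 (-0.362), Ptgds (-0.361), mt-Co1 (-0.347), mt-Nd1 (-0.318) and mt-Co3 (-0.294).

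Load genes stood at the low end for Myh6 at TAC-4w. Its lowest correlations there were with Acta1 (-0.594), Nppb (-0.432), Ankrd1 (-0.389), Ptgds (-0.363) and Cilp (-0.235), and its highest with the calcium pump Atp2a2 (0.484) and the mitochondrial metabolism genes Ech1 (0.420), Slc25a4 (0.377) and Hadha (0.358), followed by Tnnt2 (0.319). Acta1 was also the lowest gene for Myh6 in TAC-2w (-0.213) and TAC-6w (-0.339), while in sham it had -0.0683 and the lowest were Gm42418 and 4 mitochondrial genes (-0.379 to -0.310). The genes most like Myh6 in the other sections were sarcomere, calcium and energy genes: Tcap, Atp2a2, Atp5b, Cox6a2 and Tnnt2 in sham (0.363 to 0.296), Tnni3, Tcap, Atp2a2, Tnnt2 and Atp5b in TAC-2w (0.281 to 0.167) and Tnni3, Tpm1, Tnnt2, Myl2 and Tcap in TAC-6w (0.372 to 0.326). In sham, Myh6 had a correlation of 0.417 with the UMIs of the spot, above its value with any gene named there. Its 5 highest genes in sham had 0.360 to 0.385 with those UMIs, and its 5 lowest -0.853 to -0.295. Elsewhere Myh6 had lower values with the UMIs of the spot: 0.204 in TAC-4w, 0.0332 in TAC-2w and -0.0055 in TAC-6w. The part of depth in these lists was not tested. Over spots of the TAC-4w section Myh6 and Myh7 themselves had a correlation of 0.0001. Both went with Tnnt2 there (0.319 for Myh6, 0.450 for Myh7), and this shared part was not removed. The value therefore cannot tell whether, among spots of like muscle content, those with more Myh6 had less Myh7.

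Among genes known to act on the myosin genes (12 listed), 11 could be tested at TAC-4w, and 1 was called lower and 0 higher, with a median ratio of 1.00 against 1.16 over all genes. Over all genes 5.28% were called higher there and 0.776% lower, so that a count of 1 in a short list says little about the list. The called gene was Mhrt, known to be lost from the pressure-loaded ventricle: it was at 18.8 CPM in sham, 21.9 CPM in TAC-2w, 3.29 CPM in TAC-4w and 16.7 CPM in TAC-6w. Its TAC-4w level was 0.175 of sham (0.140 to 0.217), the 9th lowest ratio of 11205 genes. The thyroid hormone receptors Thra (1.24) and Thrb (1.00), the M-CAT factor Tead1 (1.04) and the transcription factors Gata4 (1.32), Mef2a (0.951), Mef2c (0.978) and Sox6 (0.9495) lay within 2-fold of sham, as did the Mediator subunit Med13 (1.21) and the repressor Purb (0.963). At TAC-6w, 12 were tested and 1 was called higher, the calcineurin target Rcan1, at 2.14 (1.93 to 2.37), where 4.66% of all genes were. Rcan1 was also above sham at TAC-4w, at 1.68 (1.50 to 1.88), but within 2-fold. At TAC-2w 0 of 11 were called, against 0.657% of all genes higher and 0.587% lower.

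Of the partners of myosin in the thick filament, 10 of 12 were tested at TAC-4w and 1 was called, Myl7, higher at 4.61 (2.25 to 10.7) but at only 1.60 CPM. Since 5.28% of all genes were called higher there, 1 call among 10 says little about the list. The main ventricular light chains were lower rather than higher there, Myl2 at 0.778 and Myl3 at 0.823 of sham, and the M-band protein Myom2 was at 1.77. Ttn (1.09), Mybpc3 (0.954) and the myosin chaperones Unc45b (1.01) and Smyd1 (1.07) stayed near sham. At TAC-2w and at TAC-6w 0 of 10 were called, where 0.657% and 4.66% of all genes were called higher and 0.587% and 0.251% lower.

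Of the other 11 myosin heavy chain genes only the non-muscle and smooth muscle genes Myh9, Myh10, Myh11 and Myh14 had enough UMIs, and 0 of 4 were called at TAC-4w or at TAC-6w. Over all genes 5.28% and 4.66% were called higher in these sections and 0.776% and 0.251% lower, so 0 calls among 4 say little. Myh14 came nearest at TAC-4w, with 26.8 CPM in sham, 25.2 in TAC-2w, 49.4 in TAC-4w and 23.8 in TAC-6w and a TAC-4w ratio of 1.84 (1.69 to 2.02), so that it was highest in the section in which Myh7 was. At TAC-2w the smooth muscle gene Myh11 was called lower, at 0.497 (0.444 to 0.556), as were 0.587% of all genes. The skeletal and embryonic genes among them, such as Myh1, Myh3 and Myh4, had no more than 3 UMIs in any section.

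Genes known to answer load in cardiomyocytes (10 listed) were called higher for 7 of 10 at TAC-4w, 4 of 10 at TAC-6w and 0 of 10 at TAC-2w, with median ratios of 3.09, 1.92 and 1.03. Over all tested genes 5.28%, 4.66% and 0.657% were called higher in the same order. The list was chosen with earlier results of these data known, so its counts are a description only. Nppa was at 106 CPM in sham, 136 in TAC-2w, 1920 in TAC-4w and 580 in TAC-6w. Acta1 was at 110, 199, 1286 and 3370 CPM in the same order, and Ankrd1 at 209, 134, 1120 and 1087 CPM. These genes did not keep 1 order of sections: TAC-4w was highest for Nppa, Nppb and Myh7, while TAC-6w was highest for Acta1, which was 30.7-fold above sham (29.6 to 31.8) in a section where Myh7 was 2.32-fold above it. The hemoglobin genes, as markers of blood, were called lower for 4 of 4 at TAC-4w, against 0.776% of all genes. The macrophage genes Adgre1 and C1qa were called higher there, and the part of both lists in the myosin values was not tested.

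**Figure D5:**
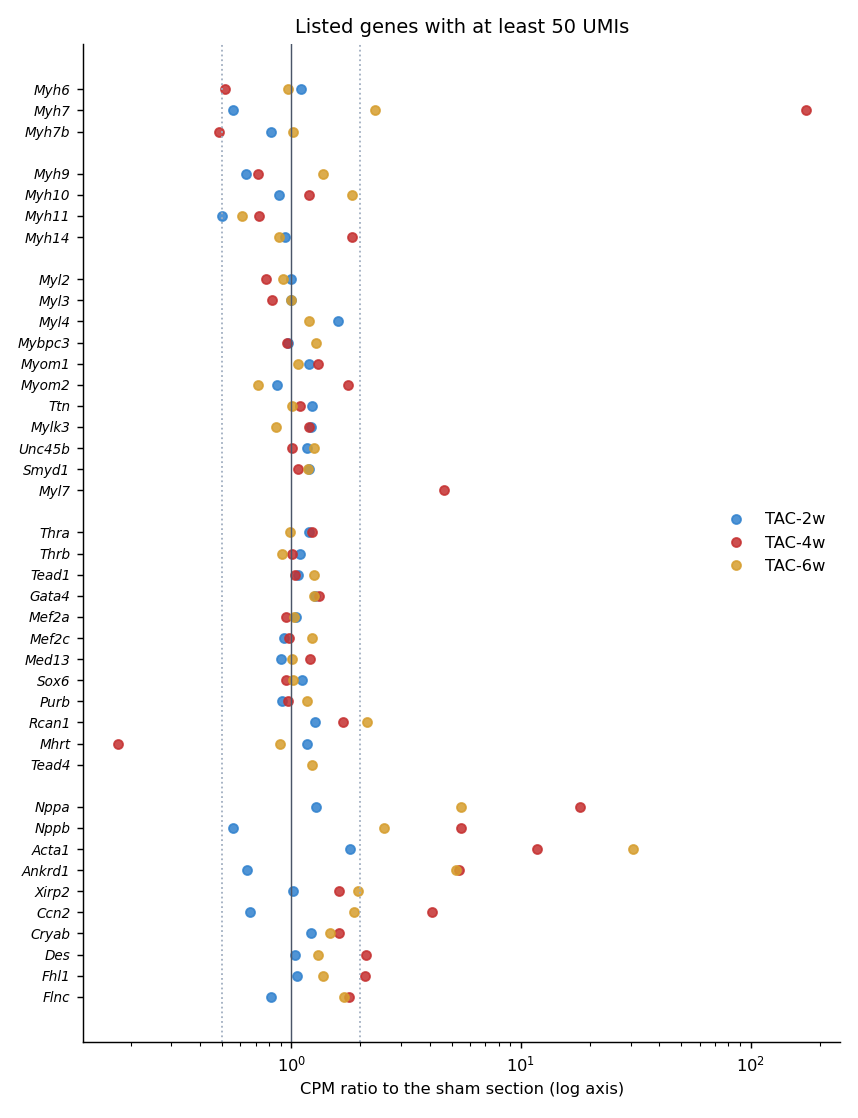
CPM ratio of each TAC section to the sham section (log axis) for the 3 members and for the listed genes with at least 50 UMIs in either section, in blocks of other myosin heavy chains, thick filament partners, regulators and load-responsive genes; dotted lines mark 2-fold. Myh7 at TAC-4w lies at 174 and Mhrt at 0.175, while Acta1 is highest at TAC-6w, at 30.7.

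The droplet libraries held little myosin. Myh6 was at 66.1 CPM in the sham library (5727 UMIs of 86671674), 136 CPM in TAC-2w (10700 UMIs), 10.0 CPM in TAC-4w (483 UMIs) and 5.52 CPM in TAC-6w (159 UMIs), far below the sections. Myh7 had 32, 39, 14 and 7 UMIs, and Myh7b 21, 10, 4 and 0 UMIs, the last of which allows a level of up to 0.104 CPM, that of 3 UMIs. The labels describe a preparation of nuclei for these libraries and the study's methods one of cells.

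The isoform share in the libraries was 0.556% in sham (0.380% to 0.784%), 0.363% in TAC-2w (0.258% to 0.496%), 2.82% in TAC-4w (1.55% to 4.68%, 14 of 497 UMIs) and 4.22% in TAC-6w (1.71% to 8.50%, 7 of 166 UMIs). The intervals of TAC-4w and TAC-6w overlap. In sham and in TAC-2w the interval held the share of the section with the same label. For TAC-6w the interval lay above the 1.35% of the section. In the barcodes past the filters of the study's methods the interval held that value, at 3.64% (0.9995% to 9.05%, 4 of 110 UMIs). In barcodes with at least 5% of their UMIs from cardiomyocyte reference genes the interval lay above it, at 11.4% (3.20% to 26.7%, 4 of 35 UMIs). For TAC-4w it lay far below the 66.0% of the section, and in the 34 barcodes with at least 5% of their UMIs from cardiomyocyte reference genes the share was 2.88% (1.07% to 6.17%); 15 barcodes lay between 4% and 6%, near that cut. The TAC-4w library is of the same batch label as the TAC-4w section, and that both samples are of 1 heart is not stated.

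Part of the myosin in the libraries came with atrial genes. In the barcodes past the 5% cut Myl7 was at 11160 CPM in sham and 11706 CPM in TAC-2w, or 0.657 and 0.921 of the UMIs of Myl2, but at 0.0535 of them in TAC-4w and 0.000911 in TAC-6w. In the sections this gene was near 0. Of the barcodes with cardiomyocyte reference genes near that cut, from 4% to 6%, there were 70 in sham and 60 in TAC-2w, against 126 and 95 past it, and past a cut of 10%, with 5 and 4 barcodes, Myl7 was at 478 and 70.8 CPM. Adult atrium is known to express Myh6 with little Myh7, and the part of atrial RNA in the isoform share was not tested. In barcodes with the B cell genes Cd79a and Cd79b, which should lack both myosins, Myh6 was at 81.0 CPM in sham (251 barcodes, median 3322 UMIs), 84.6 CPM in TAC-2w (168, 3850), 2.37 CPM in TAC-4w (2668, 4463) and 1.59 CPM in TAC-6w (735, 2031). In sham this background was no lower than the level over all barcodes, whose median was 8160 UMIs. In these barcodes Myh7 had 1 UMI in TAC-4w and 0 in the other 3 libraries.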

How the data were processed

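The deposited files hold raw UMI counts, of each gene in each spot (Space Ranger output) or droplet barcode (Cell Ranger output), as the authors left them before any filter of their own. The submitters' processing notes name Space Ranger 1.3.1, Cell Ranger 7.0.0 and the build mm10, and the file headers spaceranger 1.2.0 and cellranger 6.0.0. The section files list the spots over tissue.

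Counts were summed per section or library and given per 1000000 UMIs, with exact Poisson 95% intervals. Intervals of ratios are conditional binomial and those of shares Clopper-Pearson, both exact. Intervals cover counting error only. Genes were called past a ratio of 2 with at least 50 UMIs in either section; no test was possible with 1 sample per group. Share per spot used spots with at least 10 UMIs of Myh6 plus Myh7; thinning to 5000 UMIs was seeded. In the libraries, the filters of the methods (200 to 6000 genes, 500 to 30000 UMIs, mitochondrial share under 15%) were an alternative, and all barcodes the main choice. The calculation of the 2-fold rule and the intervals was checked on counts simulated with counting error alone. Such counts cannot show how far sections of the same condition differ. Genes named are the members, the listed genes, and the 5 highest and 5 lowest correlations with Myh6 and Myh7 per section. Gene bounds, promoters and microRNAs are RefSeq's, on GRCm38.p6, where all 3 members matched by symbol. The members and the lists were chosen with earlier results of these data known. Barcodes were shared between libraries in 9 to 30 cases a pair, and no doublet caller was run. Python 3.11.15, numpy 2.4.6, pandas 2.3.3, scipy 1.17.1 and matplotlib 3.10.9 were used.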

Additional observations from a re-analysis of the deposited data

How the results depend on the processing

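The 29 results were recomputed under 97 alternatives and, chosen after seeing the data, with the section labelled TAC-2w as the reference for 6 ratios. The isoform share of the TAC-4w section, the higher Myh7 there and at TAC-6w, and the lower Myh6 and Myh7b at TAC-4w kept their direction in all that were run. With that reference the TAC-4w section and the TAC-6w section had ratios of 313 and 4.16 for Myh7, 0.469 and 0.882 for Myh6, and 0.597 and 1.25 for Myh7b. No paired analysis was possible because each condition had 1 sample. The limits are that single sample per condition, the batches of TAC-4w and TAC-6w, and the few myosin UMIs of the libraries.

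Without mitochondrial and rRNA-like features in the total, the ratios to sham at TAC-2w, TAC-4w and TAC-6w were 0.477, 146.0 and 2.01 for Myh7, 0.940 (reversed), 0.431 and 0.840 for Myh6, and 0.696, 0.407 and 0.885 for Myh7b. Relative to the cardiomyocyte reference genes they were 0.501, 188 and 2.13 for Myh7, 0.986 (reversed), 0.556 and 0.891 for Myh6, and 0.730, 0.525 and 0.938 for Myh7b. As the mean over spots they were 0.624, 186 and 2.72 for Myh7, 1.14, 0.521 and 1.02 (reversed) for Myh6, and 0.840, 0.520 and 1.06 for Myh7b, and the share at TAC-6w was 1.42%. Without the outer 2 steps Myh6 was at 0.508 and 0.959 at TAC-4w and TAC-6w, and the share was 0.311% at TAC-2w and 1.41% at TAC-6w. In spots with at least 5000 UMIs Myh6 at TAC-6w was at 0.961.

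With 2 UMIs as the limit for a positive spot, Nppa was found in 40.1%, 45.8%, 97.1% and 93.9% of Myh7-positive spots, in the order sham to TAC-6w, and Myh7 in 23.4%, 17.4% and 46.6% of Nppa-positive spots of sham, TAC-2w and TAC-6w. After thinning these were 30.3%, 41.1%, 85.4% and 77.9%, and 21.4%, 17.1% and 36.5%. Fewer UMIs and fewer positive spots follow from both choices. In the libraries the share was 0.649% (TAC-2w) and 11.4% (TAC-6w) in barcodes past the 5% cut, and 0% (0 of 44 UMIs), 5.41% and 50% (sham, TAC-2w, TAC-6w) past a cut of 10%, which left 1 to 5 barcodes per library.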
